A study of Mus musculus with 12 samples.

Results

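The aminoacyl-tRNA synthetases load each transfer RNA (tRNA) with its amino acid and so supply ribosomes with substrate. The 44 genes described here are those whose row in the deposited count table carries the pathway name for aminoacyl-tRNA biosynthesis, leaving out the tRNA genes of the mitochondrial genome (of whose 22 rows 0 carried that name). They are 44 of 57180 rows, and all 44 passed the filter on low counts that left 14362 genes for testing. By the compartment their enzyme serves, 19 are cytosolic synthetase genes, 17 are mitochondrial synthetase genes, and 2 (Gars and Kars) make enzymes for both. Another 6 act on tRNAs that are already charged: Pstk and Sepsecs in the cytosol, and Gatb, Gatc, Qrsl1 and Mtfmt in mitochondria. Several symbols in the table are older ones, so that Aars, Kars, Qars and their like stand for genes now written with a final 1, and Tarsl2 for Tars3.

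The RNA came from cultures of 2 mouse tumour lines: KPC, a pancreatic ductal adenocarcinoma line, and MB49, a bladder cancer line, both labelled wild type and grown in DMEM with fetal bovine serum. There were 4 groups of 3 libraries: KPC cells given 8 Gy, KPC control cells, MB49 cells given 8 Gy, and MB49 control cells. Irradiated cells were kept for 48 h after the dose, and for the controls the labels state no such time. In every comparison of irradiated with control cells, dose and time in culture therefore cannot be told apart. The study's design text also speaks of senescent forms of both lines, but the labels of the 12 libraries give only control or 8 Gy, and whether the 3 libraries of 1 group are separate cultures is not stated; p-values therefore measure the spread between these libraries, which may be technical.

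Cytosolic synthetases serve the bulk of protein synthesis, and many of their genes are textbook targets of ATF4, the transcription factor of the amino acid and stress response. Mitochondrial synthetases are encoded in the nucleus, are imported, and serve only the few proteins that mitochondria make themselves. Mammalian mitochondria have no glutaminyl-tRNA synthetase: their glutamine tRNA is first charged with glutamate by Ears2 and then amidated by the enzyme built from Gatb, Gatc and Qrsl1. A set of cytosolic synthetases forms the multisynthetase complex, and Wars1, which charges tryptophan, is known as an interferon-gamma target.

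The libraries held 19006015 to 26337950 counts, and TMM scaling factors were 0.829 to 0.976 in irradiated and 1.07 to 1.18 in control libraries. Together the 44 genes took 0.549 to 1.04% of a library's counts. KPC control replicate 1 stood apart: 5.11% of its counts fell on Rn18s-rs5, a gene of 18S ribosomal RNA, against 0.141 to 0.547% in the other 11 libraries, and results that rest on this library are given with and without it. As for the labelled tissues, 4 of 10 urothelial markers, the uroplakin genes Upk1b, Upk2, Upk3a and Upk3b, had 0 counts in the MB49 controls, and Gata3, which other tissues also express, averaged 14.2 CPM there. The 10 markers summed to 45.4 to 48.2 CPM in irradiated KPC libraries and 26.4 to 33.6 CPM in KPC controls, and to 4.71 to 5.52 CPM in irradiated MB49 libraries and 12.7 to 18 CPM in MB49 controls, so that the MB49 libraries were the lower ones. The 8 pancreatic duct markers summed to 681.1 to 774.8 CPM (counts per 1000000 of the library, with TMM factors) in irradiated KPC libraries and 362.6 to 386.5 CPM in KPC controls, and to 146.0 to 199.4 CPM in irradiated MB49 libraries and 148.5 to 182.7 CPM in MB49 controls. Among these 8, Cftr had 0 counts in both KPC groups. Of the 6 tested, 4 rose in KPC cells, among them Krt19 (2.37 ± 0.27 on the log2 scale), and 1, Pdx1 (-1.82 ± 0.13), fell. The leukocyte gene Ptprc had 0 counts in every KPC library and in the MB49 controls. Of the 4 leukocyte markers tested, 3 rose in MB49 cells: Cd79a (1.44 ± 0.54 on the log2 scale), Lyz2 (1.88 ± 0.50) and Ly6g (3.32 ± 0.44). In KPC cells 2 of them rose, Cd79a (1.06 ± 0.26) and Csf1r (3.86 ± 0.69), and 0 fell in either line. The 14 leukocyte markers summed to 5.66 to 5.9 CPM in irradiated KPC libraries and 1.76 to 2.39 CPM in KPC controls, and to 5.74 to 6.15 CPM in irradiated MB49 libraries and 0.623 to 1.43 CPM in MB49 controls. The 8 fibroblast and endothelial markers summed to 37.8 to 47.2 CPM in irradiated KPC libraries and 75.5 to 92.2 CPM in KPC controls, and to 161.7 to 217.4 CPM in irradiated MB49 libraries and 53.1 to 73.3 CPM in MB49 controls. Of the 6 tested, 3 rose in MB49 cells, among them Dcn (1.92 ± 0.16 on the log2 scale) and Pdgfra (1.83 ± 0.15). Another 1, Col1a1 (-1.2 ± 0.32), fell there, and in KPC cells 1 rose and 2 fell. The part of these marker lists, all of which differed between irradiated and control cells in at least 1 line, in the results below was not tested.

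The promoters of 5 of the genes are shown because they hold the letters TGATGNAA, the core of the element through which ATF4 acts. Another reason is that these 5 genes did not all change alike between irradiated and control cells. Of the 44 genes, 32 were matched to RefSeq promoters of GRCm38.p6, from 250 bases before to 50 bases after the start, and 5 of the 32 (15.6%) held the motif on either strand, against 3.97% of all 32851 promoters of that length. Here and for the motifs below, the members are counted by gene and the background by promoter. The rest of the 44 genes were not searched. Capitals mark the motif or its reverse complement.
Aars (chr8:111033592-111033891, + strand): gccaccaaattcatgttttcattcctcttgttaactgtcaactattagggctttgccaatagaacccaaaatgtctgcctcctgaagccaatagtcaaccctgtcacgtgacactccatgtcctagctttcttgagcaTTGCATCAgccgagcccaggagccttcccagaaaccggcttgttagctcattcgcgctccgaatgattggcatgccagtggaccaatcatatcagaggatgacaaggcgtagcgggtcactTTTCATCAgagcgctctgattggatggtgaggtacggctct
Gars (chr6:55037751-55038050, + strand): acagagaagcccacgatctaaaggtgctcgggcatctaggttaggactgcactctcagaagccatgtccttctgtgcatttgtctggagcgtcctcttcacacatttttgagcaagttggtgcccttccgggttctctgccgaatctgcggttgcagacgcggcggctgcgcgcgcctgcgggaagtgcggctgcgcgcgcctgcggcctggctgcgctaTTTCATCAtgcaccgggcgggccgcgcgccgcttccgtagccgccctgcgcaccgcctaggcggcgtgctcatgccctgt
Iars (chr13:49681880-49682179, + strand): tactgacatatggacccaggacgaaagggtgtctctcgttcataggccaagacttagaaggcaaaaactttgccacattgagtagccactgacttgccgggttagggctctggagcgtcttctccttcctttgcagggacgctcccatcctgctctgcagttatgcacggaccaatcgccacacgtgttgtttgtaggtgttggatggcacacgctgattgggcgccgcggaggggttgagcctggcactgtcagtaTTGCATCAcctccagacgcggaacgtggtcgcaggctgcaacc
Tars (chr15:11399609-11399908, - strand): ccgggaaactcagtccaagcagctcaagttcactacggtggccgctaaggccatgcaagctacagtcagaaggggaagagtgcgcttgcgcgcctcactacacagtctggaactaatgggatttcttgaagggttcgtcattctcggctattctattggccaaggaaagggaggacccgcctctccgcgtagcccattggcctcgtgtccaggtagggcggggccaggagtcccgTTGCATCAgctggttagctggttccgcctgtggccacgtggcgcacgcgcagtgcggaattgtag
Yars (chr4:129189653-129189952, + strand): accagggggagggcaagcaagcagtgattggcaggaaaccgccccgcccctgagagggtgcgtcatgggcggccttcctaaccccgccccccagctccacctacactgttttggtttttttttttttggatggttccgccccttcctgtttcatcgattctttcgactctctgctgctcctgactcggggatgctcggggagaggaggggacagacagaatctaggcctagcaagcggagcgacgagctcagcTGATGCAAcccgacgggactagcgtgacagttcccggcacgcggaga
The E-box CACGTG was present in 5 of the 32 (Aars, Ears2, Farsb, Iars and Tars) and in 7.15% of all promoters. The interferon-gamma-activated site TTCNNNGAA was present in 4 of the 32 (Aars, Kars, Mtfmt and Nars2) and in 8.3% of all promoters. Both strands were searched, and 0 of the 32 promoters had matches of different motifs that overlapped. A match describes these letters and no more.

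In control cells the cytosolic genes stood about an order of magnitude above the mitochondrial ones. Levels were compared between genes as CPM per kilobase, using the gene length in the deposited table. In KPC controls the median cytosolic level was 44.9 to 54.2 CPM per kilobase and the median mitochondrial level 4.66 to 5.07, and in MB49 controls these medians were 75 to 92.2 and 4.24 to 4.9. The ratio of the 2 medians was between 8.86 and 21.7 in all 12 libraries. Sars, which charges serine and selenocysteine tRNAs, had the highest mean level in both lines, with 516.1 CPM per kilobase in KPC controls and 493.9 in MB49 controls. Next among the cytosolic genes came Aars (alanine) with 321.4 CPM per kilobase in KPC controls and Nars (asparagine) with 253.3 in MB49 controls. At the other end stood Mars2, the mitochondrial methionine enzyme, with 0.747 CPM per kilobase in KPC controls and 1.17 in MB49 controls. Its listed length of 11294 bases is the longest of these genes, and without division by length it was not the lowest. Mars2 averaged 8.43 CPM in KPC controls, against 3.68 for Rars2, and 13.2 CPM in MB49 controls, against 7.79 for Rars2. The cytosolic exception was Tarsl2, a second threonine enzyme, at 1.49 CPM per kilobase in KPC controls and 2.09 in MB49 controls. On the mitochondrial side Lars2 (leucine) led with 341.6 CPM per kilobase in KPC controls and 52.6 in MB49 controls, a level treated separately below because a single library set the first of these values.

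**Figure D1:**
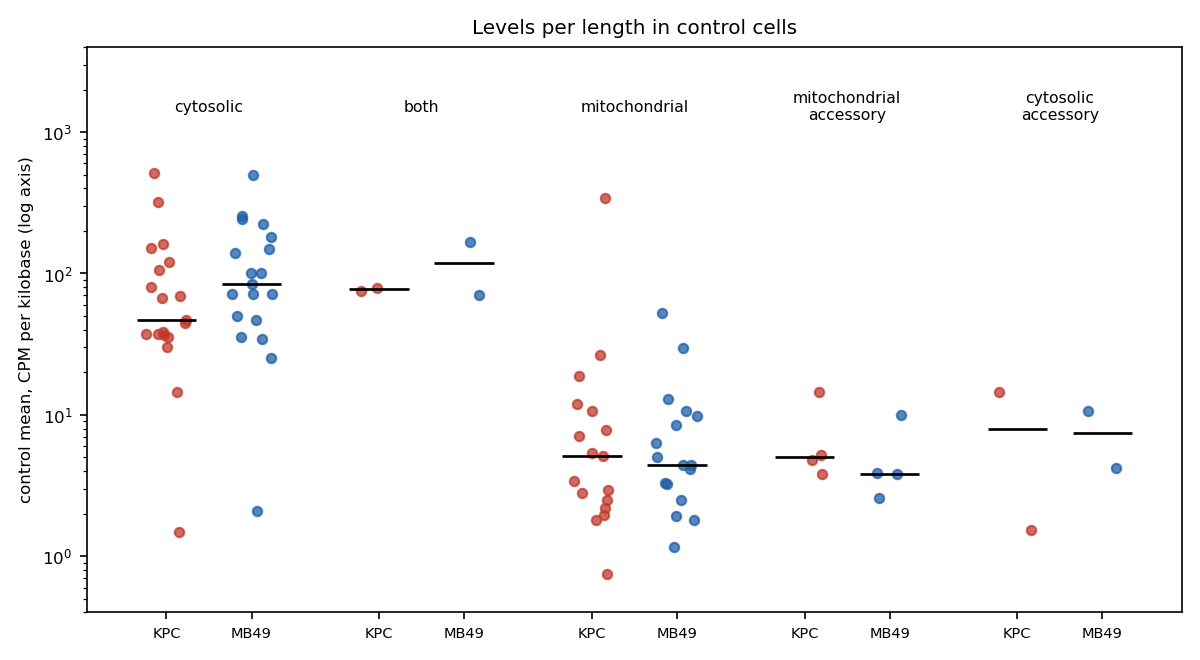
Mean level of each gene in control cells, in CPM per kilobase on a log axis, by compartment, with KPC left of MB49. Each point is 1 gene (mean of 3 libraries) and the bar is the median of the class; the cytosolic genes sit above nearly all mitochondrial ones, apart from Tarsl2 at 1.49 and 2.09 CPM per kilobase.

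In KPC cells given 8 Gy, 14 of the 44 genes rose and 22 fell against KPC controls (edgeR's quasi-likelihood test, Benjamini-Hochberg adjusted p under 0.05 over 14362 genes). This share stands beside a background in which 63.3% of all genes were called in KPC cells, 31.3% higher and 32.0% lower. In MB49 cells 7 of the 44 rose and 27 fell, where 66.9% of all genes were called, 35.3% higher and 31.6% lower. The median log2 fold change of the 44 was -0.34 in KPC cells, against -0.01 over all genes, and -0.57 in MB49 cells, against 0.04 over all genes. In MB49 cells the median over all genes ran with gene length, from 0.64 in the shortest of 8 length classes to -0.28 in the longest. In KPC cells these 2 values were -0.06 and -0.09. Each of the 2 shortest classes held 1 of the 44 genes. A fit with a gene-length offset is among the settings given further on. CPM are shares of a library, so that fewer cells with a transcript and less of it per cell cannot be told apart.

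Cytosolic and mitochondrial genes were counted separately, and no test set one class against the other. Among the 19 cytosolic genes 6 rose and 8 fell in KPC cells (median -0.06), and 3 rose and 14 fell in MB49 cells (median -0.60). With libraries scaled by their totals alone these counts were 4 and 11 in KPC cells and 1 and 16 in MB49 cells. Among the 17 mitochondrial genes 5 rose and 10 fell in KPC cells (median -0.87), and 2 rose and 10 fell in MB49 cells (median -0.64). The KPC median leans on Lars2, whose value rests on KPC control replicate 1. Without Lars2 the medians were -0.66 in KPC cells and -0.64 in MB49 cells. By totals alone the counts of mitochondrial genes were 3 and 10 in KPC cells and 2 and 13 in MB49 cells. Summed over the class, the cytosolic genes had 5924.1, 5708 and 6182.4 CPM in irradiated KPC libraries, against 5706.8, 6311.7 and 6257.4 CPM in KPC controls, so that with TMM factors these groups overlapped. In MB49 cells the sum was 4889.5, 4871 and 4262.6 CPM after 8 Gy, against 7523.1, 7315.8 and 7637.2 CPM in controls, with every irradiated library below every control. The mitochondrial sum without Lars2 was 314.9, 304 and 336.5 CPM in irradiated KPC libraries, against 348.2, 379.6 and 366.4 CPM in KPC controls. It was 266.1, 262.4 and 227.6 CPM in irradiated MB49 libraries, against 342.6, 329.4 and 348.5 CPM in MB49 controls. Irradiated libraries lay below the controls for this sum in both lines.

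Gene by gene, 21 of the 44 fell in both lines, 7 rose in both, and 2 went opposite ways. Another 5 rose in KPC cells alone, 1 fell in KPC cells alone, 4 fell in MB49 cells alone and 4 were called in neither. The same joint counts were not made over all genes, so how usual such agreement between the lines is cannot be said here. Whether a response differed between the lines is a separate test, given further on.

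**Figure D2:**
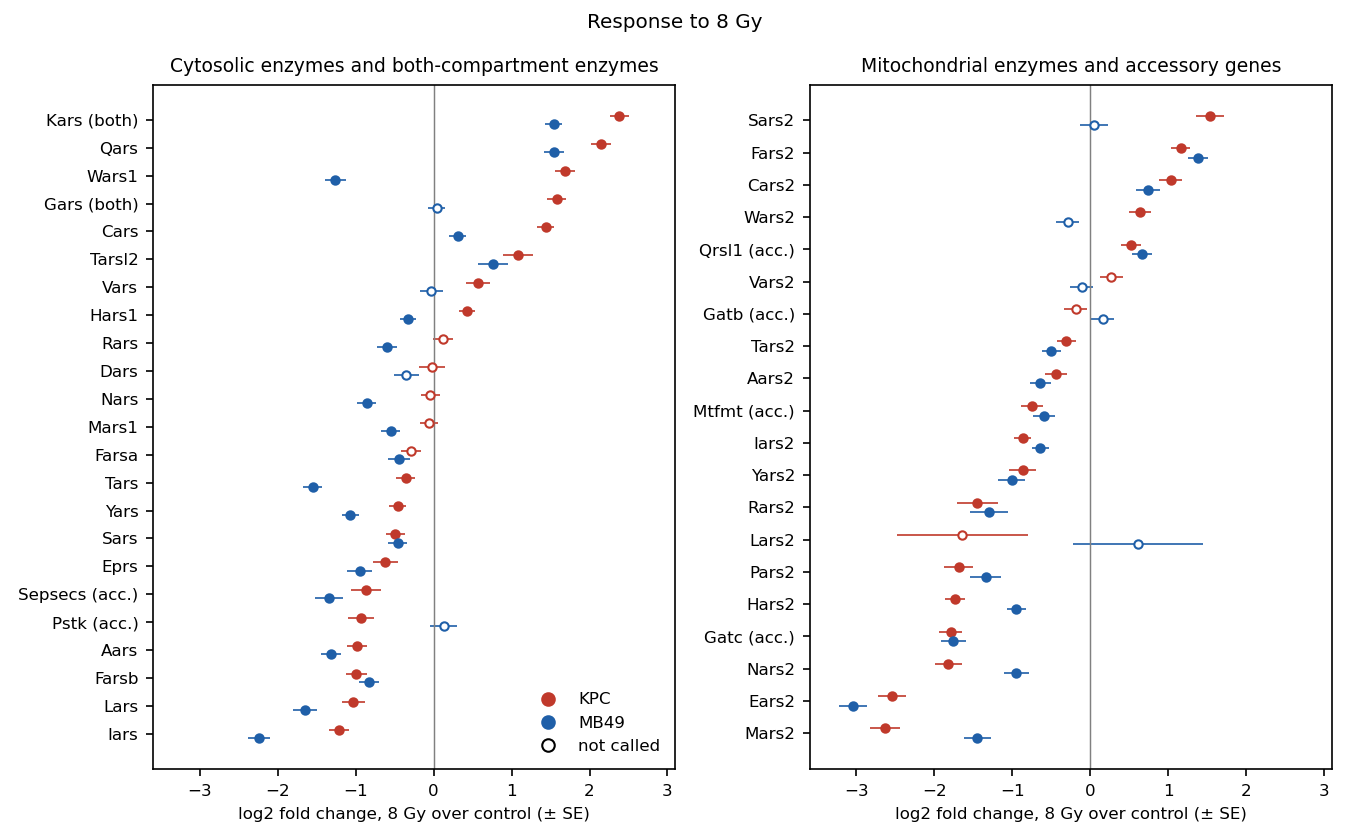
Log2 fold change (8 Gy over control, ± SE) of 43 of the 44 genes in KPC (red) and MB49 (blue) cells, with cytosolic, both-compartment and cytosolic accessory genes on the left and mitochondrial genes with their accessory genes (acc.) on the right. Filled points are called at adjusted p under 0.05; Kars and Qars lie highest in both lines, Ears2 and Iars lowest in MB49 cells, and Wars1 on opposite sides of 0.

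The cytosolic genes that fell in both lines were Aars, Eprs, Farsb, Iars, Lars, Sars, Tars and Yars. Iars, the isoleucine enzyme, had 156.4, 148.2 and 153.7 CPM in irradiated KPC libraries, against 300.6, 346.9 and 412.0 CPM in KPC controls. In MB49 cells Iars had 148.9, 138.5 and 129.5 CPM after 8 Gy, against 677.5, 721.8 and 569.1 CPM in controls. The irradiated libraries of the 2 lines thus stood close together while the controls did not, and Iars fell by 1.21 (SE 0.13, adjusted p = 4.84e-07) on the log2 scale in KPC cells and by 2.24 (SE 0.14, adjusted p = 2.66e-10) in MB49 cells. Lars, the leucine enzyme that also reports leucine to the growth kinase mTORC1, had 79.4, 78.4 and 67.4 CPM in irradiated KPC libraries, against 130.0, 178.0 and 153.1 CPM in KPC controls. In MB49 cells Lars had 81.5, 82.1 and 108.6 CPM after 8 Gy, against 242.7, 301.0 and 309.5 CPM in controls. No irradiated library reached a control of its line, and the fall was 1.03 (SE 0.15, adjusted p = 1.15e-05) in KPC cells and 1.65 (SE 0.15, adjusted p = 4.53e-08) in MB49 cells, that is, log2 fold changes of -1.03 and -1.65.

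Aars, among the most abundant of the enzymes, had 949.8, 895.4 and 968.0 CPM in irradiated KPC libraries, against 1709, 1885 and 1950 CPM in KPC controls. In MB49 cells Aars had 563.9, 553.4 and 427.3 CPM after 8 Gy, against 1367, 1225 and 1272 CPM in controls. No irradiated library reached a control of its line, and the log2 fold change was -0.98 ± 0.13 (SE, adjusted p = 3.48e-06) in KPC cells and -1.32 ± 0.13 (adjusted p = 9.08e-08) in MB49 cells. Tars, which charges threonine, had 215.9, 227.0 and 202.1 CPM in irradiated KPC libraries, against 251.6, 289.2 and 289.2 CPM in KPC controls. In MB49 cells Tars had 129.1, 128.5 and 155.9 CPM after 8 Gy, against 369.1, 411.9 and 431.6 CPM in controls. The log2 fold change of Tars was -0.36 ± 0.12 (adjusted p = 0.0135) in KPC cells and -1.55 ± 0.12 (adjusted p = 6.42e-09) in MB49 cells; in KPC cells the call was lost without irradiated replicate 3 (adjusted p = 0.061) or without control replicate 2 (adjusted p = 0.0545).

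Farsb, the beta subunit of the phenylalanine enzyme, had 36.3, 40.2 and 34.1 CPM in irradiated KPC libraries, against 78.9, 74.8 and 66.3 CPM in KPC controls. Farsb had 53.4, 47.9 and 64.3 CPM in irradiated MB49 libraries, against 94.8, 105.3 and 94.1 CPM in MB49 controls. The 2 subunits of this enzyme did not move equally: Farsb changed by -0.99 ± 0.13 in KPC cells and -0.83 ± 0.13 in MB49 cells, and Farsa by -0.29 ± 0.13 (adjusted p = 0.0675, not called) in KPC cells and -0.44 ± 0.14 (adjusted p = 0.00869) in MB49 cells. Eprs, a single protein that charges both glutamate and proline, had 109.2, 125.2 and 109.1 CPM in irradiated KPC libraries, against 144.9, 204.4 and 177.3 CPM in KPC controls. Eprs had 194.5, 183.6 and 266.0 CPM in irradiated MB49 libraries, against 368.0, 452.1 and 420.5 CPM in MB49 controls. Its log2 fold change was -0.62 ± 0.16 (adjusted p = 0.00225) in KPC cells and -0.95 ± 0.16 (adjusted p = 4.08e-05) in MB49 cells. The other 2 of the 8, Sars and Yars, changed by -0.49 and -0.46 in KPC cells and by -0.46 and -1.07 in MB49 cells.

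Against these falls, Qars, Cars, Tarsl2 and the both-compartment gene Kars rose in both lines. Kars, whose transcript is spliced into a cytosolic and a mitochondrial lysine enzyme, had 851.5, 822.6 and 844.8 CPM in irradiated KPC libraries, against 158.2, 159.8 and 165.4 CPM in KPC controls. In MB49 cells Kars had 465.1, 459.3 and 386.3 CPM after 8 Gy, against 157.3, 140.4 and 151.6 CPM in controls. The control libraries of both lines thus spanned a narrow band, and Kars rose 5.21-fold in KPC cells (log2 fold change 2.38 ± 0.12, adjusted p = 1.75e-11) and 2.92-fold in MB49 cells (1.54 ± 0.11, adjusted p = 2.82e-09). Qars, the glutamine enzyme, had 457.4, 428.2 and 478.6 CPM in irradiated KPC libraries, against 100, 99.3 and 108.6 CPM in KPC controls. In MB49 cells Qars had 434.7, 397.6 and 305.4 CPM after 8 Gy, against 139.0, 128.1 and 123.4 CPM in controls. Qars rose 4.43-fold in KPC cells (2.15 ± 0.13, adjusted p = 3.80e-10) and 2.91-fold in MB49 cells (1.54 ± 0.13, adjusted p = 1.75e-08).

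Cars, the cysteine enzyme, had 387.5, 380.7 and 398.1 CPM in irradiated KPC libraries, against 139.5, 145.2 and 144.6 CPM in KPC controls. In MB49 cells Cars had 432.5, 425.5 and 346.7 CPM after 8 Gy, against 324.5, 312.1 and 335.7 CPM in controls. The rise was 1.44 ± 0.11 (adjusted p = 8.21e-09) on the log2 scale in KPC cells and 0.31 ± 0.11 (adjusted p = 0.0222) in MB49 cells. The MB49 call was lost in several settings: the log2 fold change was 0.01 (adjusted p = 0.942) with libraries scaled by totals alone, and 0.22 to 0.31 when any of MB49 irradiated replicates 1 or 2, MB49 control replicates 1 or 2, or KPC control replicate 1 was left out. Tarsl2 had 10.1, 11.3 and 8.69 CPM in irradiated KPC libraries, against 4.24, 4.41 and 5.63 CPM in KPC controls. In MB49 cells Tarsl2 had 8.80, 10.9 and 14.2 CPM after 8 Gy, against 6.17, 7.07 and 6.81 CPM in controls. The paralogue moved opposite to its abundant relative Tars, with log2 fold changes of 1.08 ± 0.19 (adjusted p = 9.8e-05) in KPC cells and 0.76 ± 0.19 (adjusted p = 0.00164) in MB49 cells, the second of which was 0.47 (adjusted p = 0.0566) by library totals alone. Tarsl2 overlaps the gene Tm2d3 on the same strand in GENCODE M21, so reads may have been shared between them.

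Wars1 and Hars1 rose in KPC cells and fell in MB49 cells. Wars1 had 929.1, 918.3 and 1027 CPM in irradiated KPC libraries, against 285.3, 285.4 and 318.7 CPM in KPC controls. In MB49 cells Wars1 had 153.5, 149.3 and 113.9 CPM after 8 Gy, against 363.3, 325.5 and 309.7 CPM in controls. The controls of the 2 lines overlapped while the irradiated libraries did not come near each other: Wars1 rose 3.23-fold in KPC cells (1.69 ± 0.13, adjusted p = 6.94e-09) and was 2.40-fold lower in irradiated MB49 cells (-1.26 ± 0.13, adjusted p = 2.23e-07). Hars1, the histidine enzyme, had 78.0, 85.3 and 80.4 CPM in irradiated KPC libraries, against 58.3, 60.4 and 62.4 CPM in KPC controls. In MB49 cells Hars1 had 56.6, 54.6 and 57.3 CPM after 8 Gy, against 67.4, 71.5 and 73.7 CPM in controls. These smaller shifts were 0.43 ± 0.10 (adjusted p = 0.00115) in KPC cells, or 0.04 (adjusted p = 0.724) by library totals alone, and -0.33 ± 0.10 (adjusted p = 0.0069) in MB49 cells. Hars1 and the mitochondrial gene Hars2 lie on opposite strands and overlap in GENCODE M21, and whether the counting used strand is not stated, so reads may have been shared between them.

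**Figure D3:**
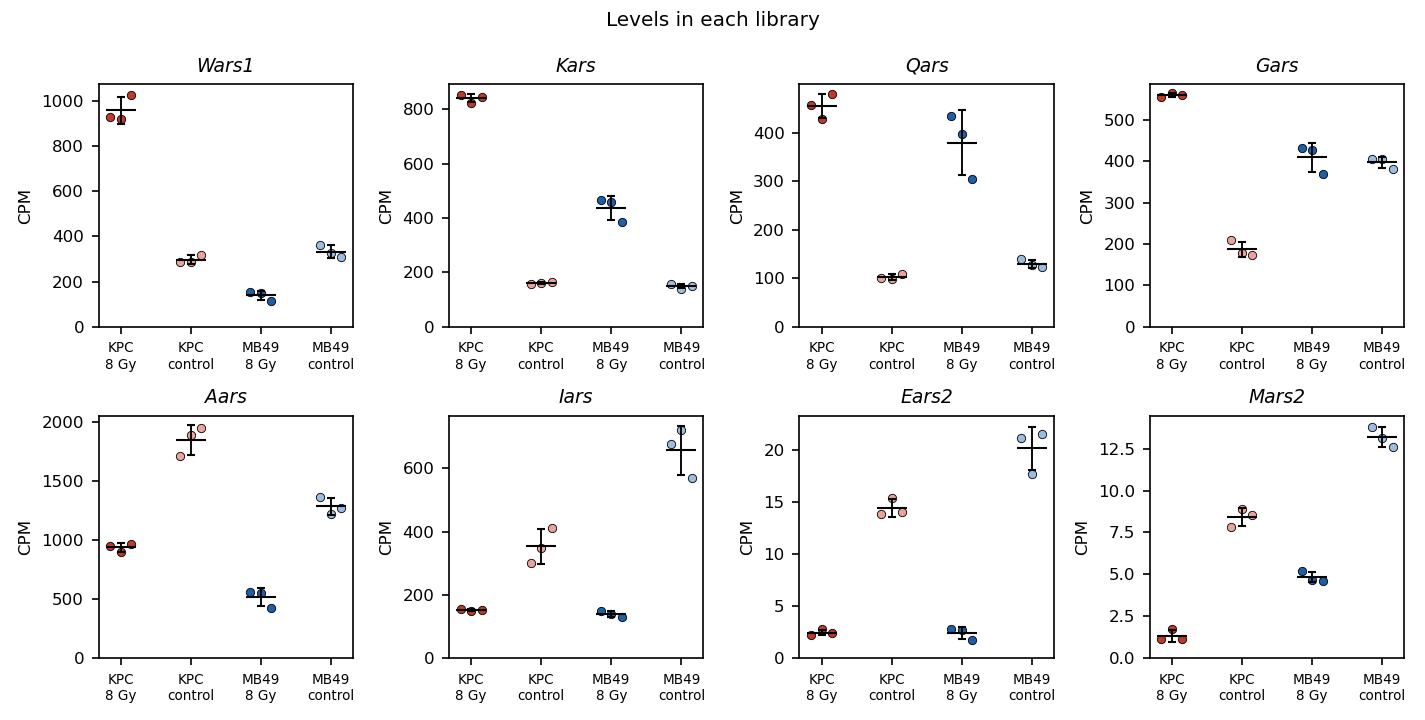
CPM in each library for Wars1, Kars, Qars, Gars, Aars, Iars, Ears2 and Mars2, with irradiated left of control libraries and KPC left of MB49; points are libraries, and bars are the mean and SD of 3 libraries. Wars1 in irradiated KPC cells (918.3 to 1027 CPM) stands above all other groups, and in irradiated MB49 cells (113.9 to 153.5 CPM) below them.

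Gars, which gives glycine enzymes to both compartments from 1 gene, had 554.4, 565.2 and 561.2 CPM in irradiated KPC libraries, against 208.7, 178.6 and 173.9 CPM in KPC controls. In MB49 cells Gars had 432.4, 426.7 and 369.6 CPM after 8 Gy, against 404.9, 405.2 and 381.4 CPM in controls. The MB49 groups overlapped. Gars rose 3-fold in KPC cells (1.58 ± 0.12, adjusted p = 3.27e-09) and had a log2 fold change of 0.04 ± 0.11 (adjusted p = 0.75) in MB49 cells, where the sign turned with the scaling, to -0.26 (adjusted p = 0.0265) by library totals alone. Vars, the valine enzyme, rose in KPC cells (0.57 ± 0.15, adjusted p = 0.00347; 0.18, adjusted p = 0.245, by totals alone) and had -0.03 ± 0.15 in MB49 cells. Farsa, Mars1 (methionine), Nars and Rars (arginine) fell in MB49 cells, with log2 fold changes of -0.44, -0.55, -0.86 and -0.60, and had -0.29, -0.06, -0.04 and 0.12 in KPC cells. Dars, the aspartate enzyme, was called in neither line (-0.02 in KPC cells and -0.35 in MB49 cells).

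Of the 5 genes whose promoters are printed above, Aars, Iars, Tars and Yars fell in both lines, whereas Gars rose in KPC cells.

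The 8 synthetase genes of the multisynthetase complex did not move as a block. Kars and Qars rose in both lines, whereas Eprs, Iars and Lars fell in both, Mars1 and Rars fell in MB49 cells, and Dars was not called. Their log2 fold changes spanned -1.21 to 2.38 in KPC cells and -2.24 to 1.54 in MB49 cells. Of the 3 genes for the complex's non-enzyme scaffold proteins, Aimp2 had 26.1, 22.4 and 26.0 CPM in irradiated KPC libraries, against 60.7, 47.8 and 47.3 CPM in KPC controls, and fell (-1.07 ± 0.13, adjusted p = 1.65e-06). In MB49 cells Aimp2 had 16.6, 16.4 and 17.8 CPM after 8 Gy, against 60.4, 50.7 and 61.0 CPM in controls, a change of -1.76 ± 0.13 (adjusted p = 4.06e-09). Eef1e1 fell in both lines (-0.80 ± 0.13 in KPC cells and -0.53 ± 0.13 in MB49 cells). Aimp1 had -0.33 ± 0.16 (adjusted p = 0.0771) in KPC cells and rose in MB49 cells (0.74 ± 0.16, adjusted p = 4.75e-04).

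Among the mitochondrial genes, 10 fell in both lines: Aars2, Ears2, Hars2, Iars2, Mars2, Nars2, Pars2, Rars2, Tars2 and Yars2. Ears2 had 2.23, 2.77 and 2.40 CPM in irradiated KPC libraries, against 13.8, 15.4 and 14 CPM in KPC controls. In MB49 cells Ears2 had 2.82, 2.70 and 1.77 CPM after 8 Gy, against 21.1, 17.7 and 21.5 CPM in controls. It was thus 5.81-fold lower in irradiated KPC cells (-2.54 ± 0.18, adjusted p = 2.31e-09) and 8.30-fold lower in irradiated MB49 cells (-3.05 ± 0.18, adjusted p = 2.12e-10). Mars2 had 1.14, 1.73 and 1.14 CPM in irradiated KPC libraries, against 7.82, 8.90 and 8.57 CPM in KPC controls. In MB49 cells Mars2 had 5.18, 4.68 and 4.62 CPM after 8 Gy, against 13.8, 13.1 and 12.6 CPM in controls. Mars2 was 6.21-fold lower in irradiated KPC cells (-2.63 ± 0.19, adjusted p = 2.31e-09) and 2.73-fold lower in irradiated MB49 cells (-1.45 ± 0.17, adjusted p = 6.65e-07).

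The asparagine gene Nars2 had 3.17, 3.08 and 2.80 CPM in irradiated KPC libraries, against 9.65, 10.6 and 11.7 CPM in KPC controls. In MB49 cells Nars2 had 5.52, 6.56 and 6.99 CPM after 8 Gy, against 10.3, 13.7 and 13.0 CPM in controls. The fall was larger in KPC cells, with log2 fold changes of -1.82 ± 0.17 (adjusted p = 8.05e-08) there and -0.95 ± 0.16 (adjusted p = 6.26e-05) in MB49 cells. Hars2 had 8.73, 7.41 and 7.49 CPM in irradiated KPC libraries, against 25, 28.5 and 25.2 CPM in KPC controls. In MB49 cells Hars2 had 11.5, 10.3 and 11 CPM after 8 Gy, against 20.8, 20.7 and 21.8 CPM in controls. It fell in both (-1.74 ± 0.13, adjusted p = 3.02e-09, in KPC cells and -0.95 ± 0.12, adjusted p = 3.26e-06, in MB49 cells), while its neighbour Hars1 rose in KPC cells.

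The proline gene Pars2 had 3.52, 2.69 and 3.54 CPM in irradiated KPC libraries, against 11.3, 9.65 and 10.4 CPM in KPC controls. In MB49 cells Pars2 had 1.84, 2.55 and 2.00 CPM after 8 Gy, against 5.26, 4.65 and 6.42 CPM in controls. It fell by 1.69 (SE 0.19) on the log2 scale in KPC cells and by 1.34 (SE 0.20) in MB49 cells. Rars2, for arginine, had 1.09, 1.34 and 1.60 CPM in irradiated KPC libraries, against 4.45, 3.37 and 3.23 CPM in KPC controls. In MB49 cells Rars2 had 3.05, 2.27 and 4.15 CPM after 8 Gy, against 6.32, 9.34 and 7.72 CPM in controls. Rars2 had the largest SEs of the class after Lars2 (-1.45 ± 0.26 in KPC cells and -1.30 ± 0.24 in MB49 cells), though no irradiated library reached a control of its line. The remaining 4, Aars2, Iars2, Tars2 and Yars2, changed by -0.44, -0.87, -0.31 and -0.87 in KPC cells and by -0.64, -0.64, -0.50 and -1.01 in MB49 cells. Without irradiated KPC replicate 2 the KPC value of Aars2 was -0.34 (adjusted p = 0.0624). The Tars2 call in KPC cells (adjusted p = 0.0352) was lost in 8 settings, among them DESeq2 (-0.25, adjusted p = 0.0772) and each single KPC library among irradiated replicates 1, 2 and 3 and control replicate 2 (-0.23 to -0.34).

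A minority of the mitochondrial genes rose. Fars2, the mitochondrial phenylalanine enzyme, had 37.9, 42.0 and 41.3 CPM in irradiated KPC libraries, against 20, 17.1 and 17.1 CPM in KPC controls. In MB49 cells Fars2 had 40.8, 38.8 and 35.3 CPM after 8 Gy, against 16.5, 13.0 and 14.7 CPM in controls. Fars2 rose by 1.16 ± 0.12 (adjusted p = 3.44e-07) on the log2 scale in KPC cells and by 1.38 ± 0.13 (adjusted p = 4.39e-08) in MB49 cells, opposite to the cytosolic subunit gene Farsb. Cars2 had 11, 9.15 and 9.09 CPM in irradiated KPC libraries, against 5.16, 4.53 and 4.57 CPM in KPC controls. In MB49 cells Cars2 had 8.28, 8.34 and 7.32 CPM after 8 Gy, against 4.65, 4.98 and 4.64 CPM in controls. Both cysteine enzymes therefore rose in KPC cells, Cars2 by 1.03 ± 0.15, and in MB49 cells Cars2 rose by 0.74 ± 0.16.

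Sars2 and Wars2 rose in KPC cells and were not called in MB49 cells. Sars2, for serine, had 16.0, 13.5 and 18.1 CPM in irradiated KPC libraries, against 5.74, 5.61 and 5.06 CPM in KPC controls. In MB49 cells Sars2 had 11.3, 10.6 and 7.37 CPM after 8 Gy, against 10.2, 7.91 and 9.97 CPM in controls. The KPC groups were far apart (1.53 ± 0.18, adjusted p = 1.16e-06) and the MB49 groups overlapped (0.05 ± 0.18). Wars2, the mitochondrial tryptophan enzyme, had 10.8, 13.8 and 12.8 CPM in irradiated KPC libraries, against 8.19, 7.74 and 8.00 CPM in KPC controls. In MB49 cells Wars2 had 6.67, 7.18 and 6.85 CPM after 8 Gy, against 8.13, 8.94 and 8.24 CPM in controls. Its log2 fold change was 0.64 ± 0.14 (adjusted p = 7.97e-04) in KPC cells, or 0.26 (adjusted p = 0.124) by library totals alone, and -0.29 ± 0.15 (adjusted p = 0.0894) in MB49 cells. Vars2 was called in neither line (0.27 in KPC cells and -0.11 in MB49 cells).

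The accessory genes that follow a synthetase step divided too. Gatc had 7.89, 7.15 and 7.72 CPM in irradiated KPC libraries, against 27.7, 24.9 and 25.9 CPM in KPC controls. In MB49 cells Gatc had 5.58, 4.10 and 6.11 CPM after 8 Gy, against 16.2, 17.4 and 20.1 CPM in controls. It fell about equally in both lines (-1.79 ± 0.15, adjusted p = 2.14e-08, in KPC cells and -1.76 ± 0.16, adjusted p = 3.05e-08, in MB49 cells). Its partner subunit Qrsl1 rose (0.52 ± 0.13, adjusted p = 0.00217, in KPC cells, or 0.13, adjusted p = 0.374, by totals alone, and 0.66 ± 0.13, adjusted p = 2.66e-04, in MB49 cells), and Gatb, the other subunit, was not called (-0.19 in KPC cells and 0.16 in MB49 cells). Along the route to mitochondrial glutaminyl-tRNA, then, Ears2 and Gatc fell, Qrsl1 rose and Gatb had no call. Mtfmt, which formylates the initiator methionyl-tRNA made by Mars2, fell in both lines (-0.75 ± 0.14 in KPC cells and -0.59 ± 0.14 in MB49 cells). Of the enzymes that turn seryl-tRNA into selenocysteinyl-tRNA, Sepsecs fell in both lines (-0.87 ± 0.19 in KPC cells and -1.34 ± 0.18 in MB49 cells). Pstk, which acts a step earlier, had 8.28, 9.23 and 8.29 CPM in irradiated KPC libraries, against 19.6, 16.4 and 13.0 CPM in KPC controls, and fell (-0.93 ± 0.17, adjusted p = 1.44e-04). In MB49 cells Pstk had 0.13 ± 0.17 (adjusted p = 0.512).

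Lars2, the mitochondrial leucine gene, followed a single library. It had 539.5, 480.1 and 257.3 CPM in irradiated KPC libraries, against 3236, 479.4 and 275.6 CPM in KPC controls. In MB49 cells Lars2 had 316.6, 298.3 and 323.4 CPM after 8 Gy, against 183.2, 135.8 and 296.0 CPM in controls. The outlying value is that of KPC control replicate 1, the library in which Rn18s-rs5 took 5.11% of the counts, and across all 12 libraries there were 6.77 to 13.7 Lars2 counts for every 100 of Rn18s-rs5. With that library the log2 fold change in KPC cells was -1.64 ± 0.84 (adjusted p = 0.122), and without it 0.19 (adjusted p = 0.689). Without KPC control replicate 3 the change in KPC cells was -2.13 (adjusted p = 0.0355). In MB49 cells the change was 0.61 ± 0.83 (adjusted p = 0.539). The part of ribosomal RNA reads in the Lars2 counts was not tested.

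**Figure D4:**
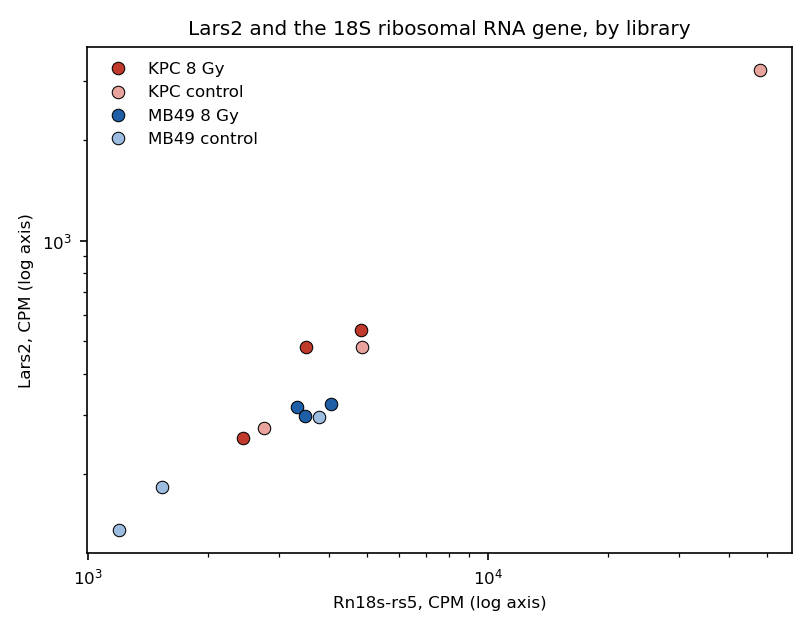
Lars2 against Rn18s-rs5 in each of the 12 libraries, in CPM with both axes on a log scale. KPC control replicate 1 lies alone at the upper right, at 3236 CPM of Lars2, and the other 11 libraries lie between 135.8 and 539.5 CPM.

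Setting the enzymes of the same amino acid side by side gives 18 pairs over 17 amino acids, since Farsa and Farsb share Fars2 and Eprs pairs with both Ears2 and Pars2. In KPC cells both partners fell in 6 pairs and both rose in 2 (Cars with Cars2, Wars1 with Wars2). In 2 KPC pairs the cytosolic gene fell and the mitochondrial one rose (Sars with Sars2, Farsb with Fars2), and in 1 the reverse held (Hars1 with Hars2). In MB49 cells both partners fell in 10 pairs and both rose in 1 (Cars with Cars2), and the 2 pairs of Fars2 had a falling cytosolic and a rising mitochondrial partner. The mitochondrial partner had the lower log2 fold change in 11 of 18 pairs in KPC cells and in 7 of 18 in MB49 cells. Among the 11 is leucine, with -1.03 for Lars and -1.64 for Lars2 in KPC cells. That Lars2 value rests on KPC control replicate 1 and was 0.19 without it. Methionine shows the widest gap between compartments in KPC cells, with -0.06 for Mars1 and -2.63 for Mars2.

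**Figure D5:**
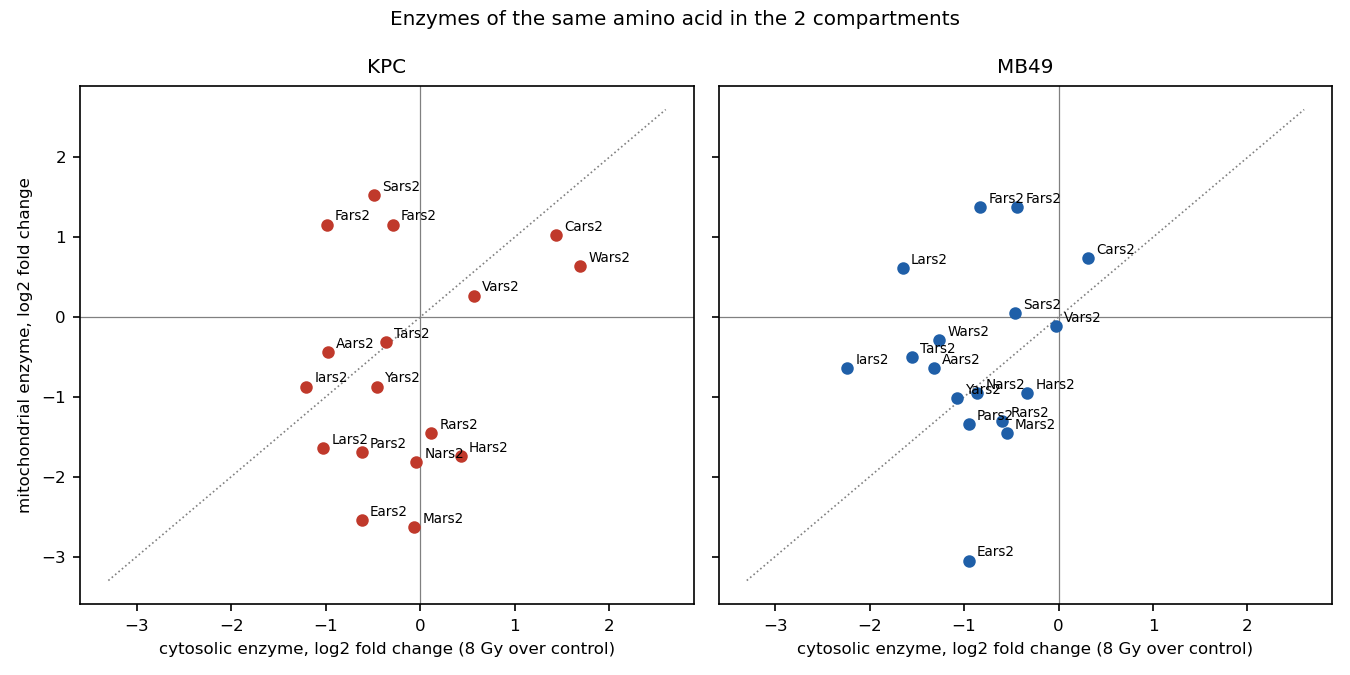
Log2 fold change (8 Gy over control) of the cytosolic enzyme on the x axis and the mitochondrial enzyme of the same amino acid on the y axis, KPC left and MB49 right; each point is 1 of 17 of the 18 pairs, named by its mitochondrial gene, and the dotted line marks equal change. Fars2 lies in the upper left quadrant of both panels, and Ears2 at or near the bottom of both.

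The difference of the 2 responses was tested directly as KPC minus MB49, where a positive value means a higher log2 fold change in KPC cells. Of the 44 genes 17 were called with a positive and 4 with a negative difference, where 42.9% of all genes were called, 20.9% positive and 22.0% negative. The positive ones were 12 of the 19 cytosolic genes, with 0 cytosolic genes called negative by edgeR (0 also at an unadjusted p under 0.05, and 0 by DESeq2), as well as Gars and Kars and 3 mitochondrial genes. The cytosolic median difference was 0.61 and the mitochondrial one 0.14 (0.16 without Lars2), against -0.02 over all genes. Without KPC control replicate 1 the median of all genes shifted by 0.1. Of all genes called, 57.1% were then positive, against 48.7% with that library. Wars1 had the largest difference, 2.95 ± 0.19 (adjusted p = 4.10e-09). Among the other cytosolic and both-compartment genes, Gars had 1.54 ± 0.16 (adjusted p = 1.48e-06), Tars 1.19 ± 0.17 (adjusted p = 3.34e-05), Cars 1.13 ± 0.16 (adjusted p = 2.92e-05) and Iars 1.03 ± 0.19 (adjusted p = 3.20e-04). For Iars and Tars the positive sign means a smaller fall in KPC cells, for Cars a larger rise. In the multisynthetase complex 6 of the 8 enzymes had a called positive difference, and the 8 values ran from 0.33 to 1.03. Of these calls, that of Lars (0.61, adjusted p = 0.0249) was lost by library totals alone (0.52, adjusted p = 0.0941) and without any 1 of irradiated MB49 replicates 1 and 2, MB49 control replicate 2 and irradiated KPC replicates 1 and 2 (0.54 to 0.58). The call of Mars1 (0.49, adjusted p = 0.0304) was lost without MB49 control replicate 1 (0.47, adjusted p = 0.064) or irradiated KPC replicate 3 (0.43, adjusted p = 0.0862). The mitochondrial genes went both ways: Sars2 (1.48 ± 0.25) and Wars2 (0.93 ± 0.20) were positive, and Mars2 (-1.18 ± 0.25), Nars2 (-0.87 ± 0.24) and Hars2 (-0.78 ± 0.18) negative. Pstk was the remaining negative gene (-1.05 ± 0.24). For Lars2 the difference was -2.25 ± 1.18 with KPC control replicate 1 and -0.33 without it.

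The control cells of the 2 lines differed as well. KPC controls against MB49 controls had 11 of the 44 genes higher and 21 lower, where 67.3% of all genes were called, 33.0% higher and 34.4% lower. Cytosolic genes were mostly lower in KPC controls, with 2 higher and 14 lower of 19 (median -0.49). The 17 mitochondrial genes divided into 4 higher and 5 lower (median -0.08, or -0.1 without Lars2). This comparison and both responses share the control libraries, so that a low KPC control level enters the KPC response as well. Eprs (-1.24 ± 0.16), Cars (-1.18 ± 0.11), Nars (-1.08 ± 0.12) and Rars (-0.92 ± 0.13) were the lowest cytosolic genes in KPC controls. For Cars the levels were 139.5, 145.2 and 144.6 CPM in KPC controls, against 324.5, 312.1 and 335.7 CPM in MB49 controls. Aars (0.52 ± 0.13) and Farsa (0.43 ± 0.13) were the 2 higher ones; the call of Farsa was lost without KPC control replicate 1 (0.26, adjusted p = 0.0856) and without MB49 control replicate 2 (0.35, adjusted p = 0.0507). Gars was lower in KPC controls (-1.09 ± 0.12) and Kars was not called (0.11 ± 0.11).

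On the mitochondrial side Vars2 had 75.2, 88.7 and 87.3 CPM in KPC controls, against 41.8, 32.1 and 39.2 CPM in MB49 controls, and was higher in KPC (1.15 ± 0.15, adjusted p = 2.71e-06). Pars2 (0.94 ± 0.18) and Hars2 (0.32 ± 0.12, adjusted p = 0.0278) were higher too, but the call of Hars2 was lost when replicate 1 or 2 of either control group was left out (0.25 to 0.31). Lars2 was called higher (2.70 ± 0.88, adjusted p = 0.0235), but without KPC control replicate 1 its value was 0.84 (adjusted p = 0.0716), and the call was also lost without MB49 control replicate 1 (2.62, adjusted p = 0.0703) or 2 (2.47, adjusted p = 0.0783). Without that library, or without MB49 control replicate 2, 2 in place of 4 mitochondrial genes and 1 in place of 2 cytosolic genes were called higher. Rars2 (-1.08 ± 0.23), Sars2 (-0.77 ± 0.18) and Mars2 (-0.64 ± 0.16) were lower in KPC controls, though Mars2 had -0.29 (adjusted p = 0.122) with the gene-length offset. The 4 mitochondrial accessory genes were all called higher there, with values of 0.33 to 0.56, of which Mtfmt (0.43, adjusted p = 0.0112) lost the call without KPC control replicate 1 (0.34, adjusted p = 0.0565). Qrsl1 (0.33, adjusted p = 0.0353) lost it without any 1 of KPC control replicates 1, 2 and 3, MB49 control replicates 1 and 2 and irradiated KPC replicate 1 (0.28 to 0.35). Sepsecs was lower in KPC controls (-1.48 ± 0.18) and Pstk higher (0.43 ± 0.17, adjusted p = 0.032), the second of which was lost when replicate 1 or 2 of either control group was left out (0.23 to 0.42).

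Genes that work with the synthetases were counted from lists, to be read against the 31.3% higher and 32.0% lower among all genes in KPC cells and the 35.3% higher and 31.6% lower in MB49 cells. Of 27 tested genes of the ATF4 pathway, 3 rose and 14 fell in KPC cells (median -0.31), and 4 rose and 18 fell in MB49 cells (median -0.99). Atf4 itself had 319.3, 317.3 and 335.0 CPM in irradiated KPC libraries, against 682.2, 627.0 and 616.3 CPM in KPC controls, and fell (-0.99 ± 0.12, adjusted p = 9.64e-07). In MB49 cells Atf4 had 440.1, 454.2 and 409.5 CPM after 8 Gy, against 1304, 1223 and 1485 CPM in controls, a change of -1.62 ± 0.12 (adjusted p = 2.09e-09). The glutathione-degrading gene Chac1 and Trib3, a feedback inhibitor of the pathway, fell by 2.54 and 2.30 on the log2 scale in KPC cells. In MB49 cells Chac1 and the amino acid carrier gene Slc38a2 fell by 3.01 and 2.91. The cystine carrier gene Slc7a11 rose in both (2.71 ± 0.16 in KPC cells and 1.05 ± 0.14 in MB49 cells). Psat1, of serine synthesis, rose in KPC cells (0.51 ± 0.11) and fell in MB49 cells (-0.56 ± 0.11). The part of Atf4 in the synthetase changes was not tested.

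Of 29 genes that modify or mature tRNAs, 21 fell and the other 8 were not called in KPC cells (median -0.71), and 3 rose and 20 fell in MB49 cells (median -0.78). Trmt61a, which methylates adenosine in tRNA, had 3.17, 3.25 and 3.49 CPM in irradiated KPC libraries, against 35.7, 39.1 and 38.7 CPM in KPC controls (-3.52 ± 0.15, adjusted p = 3.21e-12). Qtrt2, a subunit of the enzyme that inserts queuine, had 1.90, 1.69 and 2.47 CPM in irradiated MB49 libraries, against 39.6, 45.3 and 39.5 CPM in MB49 controls (-4.35 ± 0.17, adjusted p = 8.89e-13). The tRNA deaminase gene Adat1 fell in both lines (-2.58 ± 0.17 in KPC cells and -3.61 ± 0.19 in MB49 cells). In MB49 cells the splicing endonuclease gene Tsen54 (1.00 ± 0.15), the mitochondrial wobble-uridine gene Gtpbp3 (0.95 ± 0.13) and Adat2 (0.61 ± 0.14) rose.

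Downstream of charging, of 7 tested cytosolic elongation genes 2 rose and 2 fell in KPC cells, and 5 rose and 2 fell in MB49 cells. Eef1a1, which delivers charged tRNA to the ribosome, had 18726, 18859 and 16958 CPM in irradiated KPC libraries, against 4702, 5109 and 5085 CPM in KPC controls (1.87 ± 0.12, adjusted p = 5.13e-10). In MB49 cells Eef1a1 had 17273, 16984 and 16084 CPM after 8 Gy, against 6012, 6148 and 6522 CPM in controls (1.43 ± 0.12, adjusted p = 1.20e-08). Its mitochondrial counterpart Tufm rose as well (1.18 ± 0.13 in KPC cells and 0.87 ± 0.13 in MB49 cells). Of the 12 mitochondrial translation factor genes 3 rose and 5 fell in KPC cells, and 3 rose and 3 fell in MB49 cells. Of 19 tested genes that signal amino acids to mTORC1, 6 rose and 6 fell in KPC cells, and 10 rose and 7 fell in MB49 cells. In KPC cells the shares of this list were close to those of all genes (31.3% higher and 32.0% lower). Its members include the inhibitor gene Tsc2, which rose in both (1.74 ± 0.15 in KPC cells and 0.92 ± 0.15 in MB49 cells). The Rag GTPase gene Rraga fell in both (-1.69 ± 0.12 in KPC cells and -1.21 ± 0.11 in MB49 cells). These 2 genes do not stand for a direction of the whole list. Rragc, also a Rag GTPase gene, rose in KPC cells (0.53 ± 0.11) and was not called in MB49 cells (-0.06 ± 0.11). Lamtor1 rose in both (0.98 ± 0.14 in KPC cells and 0.86 ± 0.14 in MB49 cells), and Lamtor3 fell in both (-0.35 ± 0.13 and -0.56 ± 0.13). The largest rise of the list in MB49 cells was that of Lamtor4 (1.93 ± 0.21).

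All 10 listed interferon-gamma response genes rose in both lines, where 31.3% of all genes were called higher in KPC cells and 35.3% in MB49 cells. This list, like the others, was chosen with earlier results of these data known. The guanylate-binding protein gene Gbp2 averaged 4659 CPM in irradiated KPC cells and 6.78 CPM in KPC controls, and 2525 CPM in irradiated MB49 cells and 5.26 CPM in MB49 controls. In the same MB49 libraries Wars1 fell; the part of interferon signalling in the Wars1 changes was not tested.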

How the data were processed

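RNA from 12 libraries (KPC and MB49 cells, 8 Gy and control, 3 each; groups and replicate numbers from the labels) was extracted with TRIzol and made into libraries with a stranded mRNA kit, per the labels' protocols. Per the submitters' processing notes, fastp, HISAT2 and StringTie were used with the build GRCm39; the counting tool and strand setting are not given in those sources. Estimated counts per gene were deposited by the authors; of these values 6.2 to 8.65% per library were not whole; 15 of the 44 genes had such a value. They were rounded to whole numbers. Genes with low counts were removed with filterByExpr (42818 of 57180 rows), libraries were scaled by TMM, and 1 coefficient per group was fitted over all 12 libraries with edgeR 4.0.16 (robust quasi-likelihood, 2-sided tests, Benjamini-Hochberg adjustment over 14362 genes). The 525 rows with no symbol kept their identifiers and stayed in the library sizes. "Called", "rose" and "fell" mean an adjusted p under 0.05. SE is the log2 fold change divided by the square root of F.

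CPM use TMM factors; CPM per kilobase divide by the length column of the deposited table. Levels depend on counting error and on unresolved overlaps: 14 of the 44 genes overlap another protein-coding gene in GENCODE M21, used by gene identifier only. For Tarsl2 (with Tm2d3) and Aars (with Exosc6) the overlap is on the same strand. The genes and all lists were chosen with earlier results of these data known. Genes named with values were those shared by the compartments, tryptophan genes, Eprs, the 4 largest rises and falls per comparison and compartment among called genes of at least 1 CPM, opposite calls, the extremes of level, and up to 3 rises and 3 falls per companion list. The alternatives were DESeq2 1.42.0, its size factors, library totals alone, no filter, only the groups compared, a replicate block, a gene-length offset (lowess span 0.3), Rn18s-rs5 removed, and leaving out each of 12 libraries. The code was tested on simulated counts. Values of 2 genes, 1 of them among the 44, are not reported here by name.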

Additional observations from a re-analysis of the deposited data

Results flagged for a closer look

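The response to 8 Gy differed between KPC and MB49 cells, by the interaction test over all genes, for 21 of the 44 genes, of which 20 are given here; values are KPC minus MB49 differences of log2 fold change. The positive ones were Wars1 (2.95), Gars (1.54), Sars2 (1.48), Tars (1.19), Cars (1.13), Iars (1.03), Wars2 (0.93), Kars (0.84), Nars (0.82), Hars1 (0.76), Rars (0.73), Lars (0.61), Vars (0.61), Yars (0.61), Qars (0.60) and Mars1 (0.49). The negative ones were Mars2 (-1.18), Pstk (-1.05), Nars2 (-0.87) and Hars2 (-0.78). The calls of Lars, Vars and Mars1 were lost when some single libraries were left out. For Vars (adjusted p = 0.031) this held for irradiated MB49 replicate 3, MB49 control replicate 1 and irradiated KPC replicates 1 and 3 (0.45 to 0.60), and its value was 0.50 (adjusted p = 0.0591) with the gene-length offset. For Lars it held for 5 libraries (adjusted p of 0.053 to 0.067) and by library totals (0.0941), and for Mars1 for 2 libraries (adjusted p of 0.064 and 0.0862). These 21 of 44 stand beside 42.9% of all genes called in the same test. No test for single outlying libraries was run on groups of 3.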

How the results depend on the processing

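Of 127 called gene and comparison results (with Lars2 and the MB49 value of Gars), 28 changed their call or sign in at least 1 setting. Library totals in place of TMM shifted the median of all genes by -0.29 in MB49 cells and -0.38 in KPC cells, and took the share of higher among called genes to 39.5% (52.7% with TMM) in MB49 cells and to 31.8% (49.4% with TMM) in KPC cells. Under that scaling 1 in place of 3 cytosolic genes was called higher in MB49 cells, and 3 in place of 5 mitochondrial genes in KPC cells. The unfiltered fit shifted the median by -0.12 in MB49 cells and by 0.13 for the difference. Leaving out KPC control replicate 1 shifted it by -0.09 in MB49 cells and by 0.1 for the difference. Between the controls the length offset left 1 in place of 2 cytosolic genes higher and the replicate block 2 in place of 4 mitochondrial genes higher; leaving out single libraries gave 1 to 2 cytosolic and 2 to 5 mitochondrial genes. Signs turned for Gars in MB49 cells (-0.26 by library totals, -0.08 unfiltered, -0.04 with only the groups compared, and without single libraries between -0.05 and 0.11), for Lars2 in KPC cells (0.19 without KPC control replicate 1, -2.13 without replicate 3) and for Pstk between the controls (-0.03 with the length offset). The cause was not tested. The unfiltered fit also called Lars2 in KPC cells (-1.62) and MB49 cells (0.49). Same-numbered deviations from the group means correlated at 0.39, -0.41 and 0.10 in MB49 cells, -0.22, -0.01 and 0.04 in KPC cells, and -0.17, -0.07 and -0.42 between the controls. With 3 libraries per group these values cannot decide whether the replicate numbers pair the libraries. With the replicate block 120 of the 127 results stayed on their side of the threshold and 7 lost their call. Low counts limit Mars2, Ears2, Rars2, Nars2 and Pars2, at 1 to 4 CPM in irradiated KPC cells.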
